A study of Mus musculus with 12 samples.

Results

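The genes described here are 8 chemokine and chemokine receptor genes of T helper 1 (Th1) cells, chosen by symbol: the ligand genes Ccl3, Ccl4, Ccl5 and Xcl1 and the receptor genes Cxcr3, Cxcr6, Ccr4 and Ccr8. All 8 had a row in the table of 18929 genes. A filter on low values, more than 10 normalised counts in at least 3 libraries, left 12699 genes for testing, and 7 of the 8 were among them. Ccl3, over 10 in 2 libraries, was not. The libraries came from T cells of C57BL/6 mice that were kept in Th1 conditions for 5 days and then sorted. The control group was 3 libraries with a wild-type genotype, and the other group was 3 libraries labelled Sdhc cKO, a conditional knockout of Sdhc, which encodes a membrane anchor subunit of succinate dehydrogenase. The labels do not name the Cre driver, the age of the mice or the gate of the sort, nor whether replicates were separate animals. The p-values therefore set each difference only against the spread of these libraries, and part of that spread may be technical. Reads of sex-linked genes, given below, differed within each group, so not all libraries of a group repeat a single source. The series also holds 6 samples of Slc25a1 KO, Slc25a11 KO and empty vector cells, which were not analysed here.

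Chemokines are small secreted proteins that guide migrating cells, and their receptors couple to inhibitory G proteins. Ccl3, Ccl4 and Ccl5 are inflammatory CC chemokines that attract monocytes and effector T cells, and Xcl1 (lymphotactin) attracts dendritic cells that carry Xcr1. T cells transcribe Ccl3, Ccl4 and Xcl1 shortly after their antigen receptor is engaged, whereas Ccl5 builds up late in effector cells. Cxcr3 brings Th1 cells to tissue where interferon gamma has induced Cxcl9 and Cxcl10, and Cxcr6 binds Cxcl16. Ccr4, which binds Ccl17 and Ccl22, and Ccr8, which binds Ccl1, are better known from Th2 and regulatory T cells than from Th1 cells.

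The libraries held 18144933 to 21983821 counted reads, so a single read corresponds to about 1 normalised count (the count divided by the size factor of its library, 0.909 to 1.11). The defining markers of CD4 T cells were abundant, with Cd4 at a mean of 10507 normalised counts in control and 10905 in cKO, and those of Th1 cells were present, with Tbx21 at 1794 and 1454 and Ifng at 1382 and 868. Foxp3, the regulatory T cell factor, had means of 258 and 218, and Gata3, the Th2 factor, 1242 and 1327. Sdhc itself ranged from 1602.5 to 1892 for control and from 1452 to 1655 for cKO. The labels do not say which part is deleted, so a count over the whole gene does not check them. Reads of sex-linked genes differed between libraries of each group, and their mix also differed between the genotypes. Control 1 and cKO 1 had 0.048 and 0.207 RPM (reads scaled to the library total) on Ddx3y, Kdm5d, Uty and Eif2s3y, all Y-linked, controls 2 and 3 had 131 and 55.1 beside 2490 and 6406 normalised counts of Xist, and cKO 2 and cKO 3 had 193 and 189 beside 0 and 2.15. Along the first principal component (49.07% of variance), control 1 and cKO 1 lay on the other side from the remaining libraries. Values are therefore given by library, and each comparison was repeated without these 2. That repeat sets controls 2 and 3, with Xist, against cKO 2 and cKO 3, almost without it. Genotype and this difference cannot be told apart there.

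Cxcr6, Ccr4 and Cxcr3 stood above the ligand genes, and Ccr8 lay among them. In normalised counts per kilobase of merged exons, the only scale on which genes are set against each other here, Cxcr6 was highest with a mean of 975 over the 6 libraries and a range of 712 to 1360. Ccr4 followed at 335 (264 to 447) and Cxcr3 at 277 (208 to 351). These 2 overlapped in range, with Ccr4 above Cxcr3 in 5 of 6 libraries. Ccr8 at 68.5 (48.5 to 101), Xcl1 at 64.4 (26.8 to 146) and Ccl5 at 62.4 (27.3 to 128) could not be ordered, since each range contained the means of the others. Ccl4 at 34.5 (19.2 to 63.3) overlapped with Ccl5, and Ccl3 was lowest at 13.4 (3.54 to 28.1), below Ccl4 in each of the 6 libraries. The ranges left 2 gaps, between Cxcr6 and Ccr4 and between Cxcr3 and Ccr8. The 8 genes together took 138 to 251 RPM in a library.

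**Figure D1:**
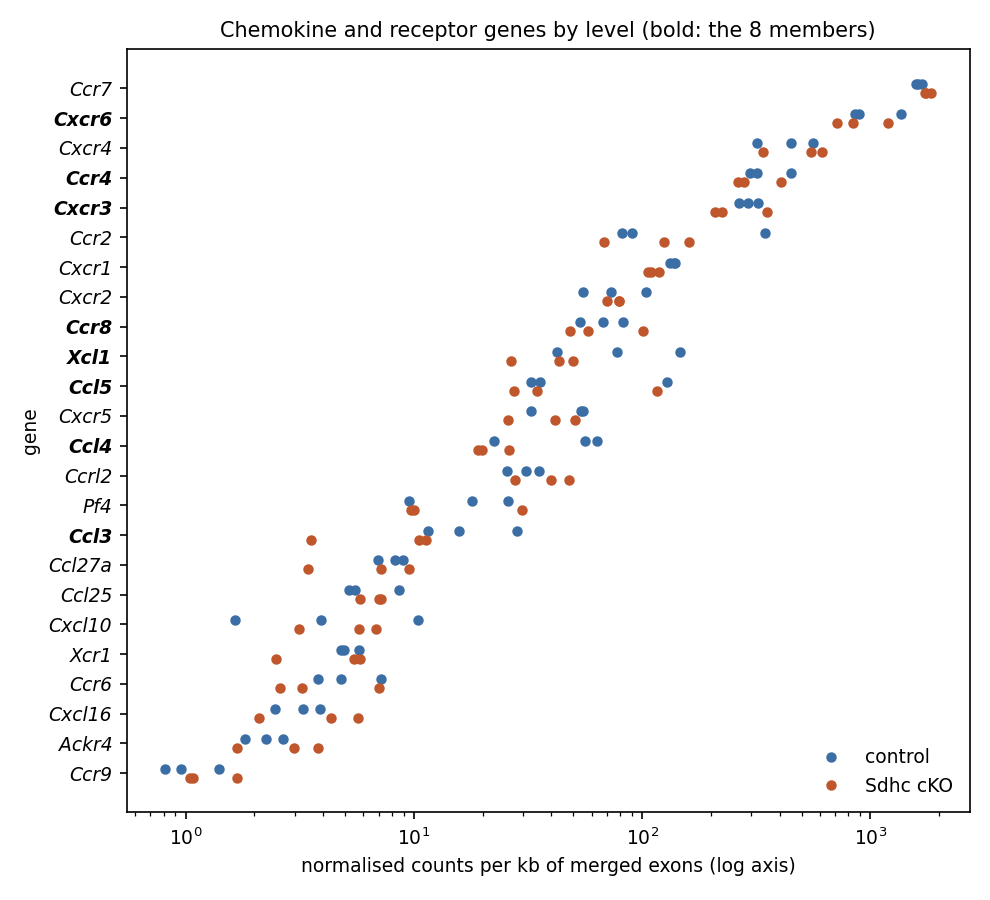
Normalised counts per kilobase of merged exons (horizontal log axis) of 24 chemokine and chemokine receptor genes, all tested except Ccl3, with 1 point per library, control in blue and Sdhc cKO in orange, ordered by mean. Cxcr6, Ccr4 and Cxcr3 lie in the upper part with Ccr7 and Cxcr4, and the ligand genes Xcl1, Ccl5, Ccl4 and Ccl3 lie lower, between 3.54 and 146. Not every tested chemokine receptor gene is drawn.

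The RefSeq table of promoters (GRCm38.p6) held 6 of the 8 genes. Ccl3 and Xcl1, whose cKO means were low together, and Ccr4 and Ccr8, which went together across libraries, are shown. The sequences are the 250 bases before the RefSeq start, 5′ to 3′ on the strand of the gene, with capitals for matches, on either strand, to GGTGTGA (T-box factors such as T-bet), TGGAAA (NFAT), TGANTCA (AP-1), TGTGGT (Runx) and the NF-kappa B consensus. The windows are chr11:83649379-83649628 for Ccl3, chr1:164935523-164935772 for Xcl1, chr9:114496545-114496794 for Ccr4, all on the minus strand, and chr9:120091883-120092132 on the plus strand for Ccr8.
Ccl3: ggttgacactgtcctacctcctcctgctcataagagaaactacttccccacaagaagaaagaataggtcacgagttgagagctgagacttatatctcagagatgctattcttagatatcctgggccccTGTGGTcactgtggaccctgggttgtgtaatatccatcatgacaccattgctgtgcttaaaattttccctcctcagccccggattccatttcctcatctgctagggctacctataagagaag
Xcl1: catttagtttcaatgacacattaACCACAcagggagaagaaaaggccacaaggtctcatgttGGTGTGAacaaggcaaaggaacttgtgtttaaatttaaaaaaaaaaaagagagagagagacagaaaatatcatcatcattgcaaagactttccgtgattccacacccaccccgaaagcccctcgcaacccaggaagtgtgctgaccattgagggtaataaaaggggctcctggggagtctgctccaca
Ccr4: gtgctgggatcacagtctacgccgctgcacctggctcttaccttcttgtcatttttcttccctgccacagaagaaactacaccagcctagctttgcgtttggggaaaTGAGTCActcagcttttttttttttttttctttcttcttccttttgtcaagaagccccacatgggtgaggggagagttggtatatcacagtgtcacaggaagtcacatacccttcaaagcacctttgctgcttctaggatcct
Ccr8: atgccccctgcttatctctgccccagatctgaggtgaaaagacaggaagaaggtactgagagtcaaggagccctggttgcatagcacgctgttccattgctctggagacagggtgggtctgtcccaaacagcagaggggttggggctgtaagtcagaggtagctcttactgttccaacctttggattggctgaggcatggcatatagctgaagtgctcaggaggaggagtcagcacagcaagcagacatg
Xcl1 held the T-box letters at -188 from the start, as 3.33% of the 32851 promoters did in a window of this length, and the Runx letters at -227. The Runx letters also stood at -122 in Ccl3 and occurred in 14.0% of promoters. Ccr4 held TGAGTCA at -143, where 6.75% of promoters have a match to the AP-1 letters. The RefSeq start used for Ccr4 lies inside its GENCODE span, which begins at 114504916 on the minus strand, so this window is not upstream of that start. Ccr8 held none of the motifs. The NFAT letters, present in 18.6% of promoters, were in none of these 4 windows and stood at -211 in Cxcr6. The Runx letters were also at -110 in Cxcr3 and at -10 in Cxcr6. The GENCODE span of Cxcr3 begins at 101734269 on the minus strand, so its match lies inside that span and not upstream of it. The NF-kappa B letters, in 0.225% of promoters, were in none of the 6 windows. A match is a description of letters and does not show that a factor binds.

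Among the ligands, Ccl3, Ccl4 and Xcl1 had means in the cKO libraries near 45% of control, and that of Ccl5 was 90.7% of control. None of these differences passed the test over all genes, and all 3 genes were sparsely counted. Ccl4 (chromosome 11, 83662584 to 83664683, plus strand, GRCm38), a CC chemokine, had normalised counts of 14.8, 37.2 and 41.8 for controls 1, 2 and 3, against 13.1, 12.7 and 17.2 for cKO 1, 2 and 3. Controls 2 and 3 were high, and control 1 lay among the cKO values. Controls 2 and 3 were also the libraries with many reads of both Xist and the Y-linked genes, which no cKO library had. The part of this mix in the Ccl4 values was not tested. With means of 31.3 ± 14.4 and 14.3 ± 2.53 (SD, n = 3 each), cKO was at 45.7% of control, a log2 difference of -0.96 (SE 0.41, 95% interval -1.91 to -0.01) of log2(value + 1), a scale that shrinks the differences of low genes. The limma p was 0.048 before adjustment and 0.978 after Benjamini-Hochberg adjustment over all tested genes. A 2-sided exact permutation test gave p = 0.2, and with 3 against 3 its smallest p is 0.1. The RNA is from bulk cells, so fewer cells of a type and less RNA per cell cannot be told apart.

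Xcl1 (chromosome 1, 164931644 to 164935527, minus strand), the C-type chemokine, had normalised counts of 22.2, 76.4 and 40.7 for controls 1 to 3, against 26.1, 22.6 and 14.0 for cKO 1 to 3. Again controls 2 and 3, with reads of both Xist and the Y-linked genes, were the 2 highest and control 1 lay among the cKO libraries. The part of this mix in the Xcl1 values was not tested. The control mean was 46.5 ± 27.6 and the cKO mean 20.9 ± 6.24 (SD, n = 3 each), or 45.0% of control, with a log2 difference of -0.99 (SE 0.45, 95% interval -2.04 to 0.06, limma adjusted p = 0.978, exact permutation p = 0.3). The difference was -0.55 without control 2 and -1.595 without control 1 and cKO 1, and the limma adjusted p was 0.164 to 0.9997 over its alternatives. The gene shares 98 exon bases with Gm20743, a transcript annotated on the opposite strand. The strand setting of the counting is not given in the sources used here, so reads of the 2 could not be told apart.

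Ccl3 (chromosome 11, 83647844 to 83649355, minus strand), the CC chemokine gene next to Ccl4, had normalised counts of 12.0, 21.6 and 8.80 for controls 1 to 3, against 8.03, 2.71 and 8.61 for cKO 1 to 3. The cKO values were all below the controls, as for 5.64% of the tested genes, but control 3 and cKO 3 both rest on 8 reads and differ only through their size factors. With means of 14.1 ± 6.63 and 6.45 ± 3.25 (SD, n = 3 each), cKO was at 45.6% of control, a log2 difference of -1.05 (exact permutation p = 0.1, the smallest possible). Being under the filter, Ccl3 had no adjusted p in the main test. With no filter its limma adjusted p was 0.945. Leaving out control 2 or cKO 2 brought its difference to -0.72 or -0.61.

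The 3 genes summed to 53, 138 and 83 reads for controls 1 to 3, against 47, 42 and 37 for cKO 1 to 3. The controls thus differed among themselves by more than control 1 differed from the cKO libraries. Between same-numbered libraries, Ccl4 in cKO was 88.1%, 34.0% and 41.2% of control for numbers 1, 2 and 3, and Xcl1 was 117%, 29.6% and 34.4%. Of the 12699 tested genes, 25 had a log2 difference of -0.9 or lower, which is 0.197%, and Ccl4 and Xcl1 were 2 of them, a bound set after the values were seen. Marker lists of other cell types are given beside these values. The gamma delta T cell list, with 7 of 8 genes in the table and 5 over 3 reads in some library, summed to 277 to 339 normalised counts in control and 178 to 246 in cKO. It was the only marker list whose sums did not overlap, and 5.64% of single tested genes had all cKO values below the controls. The most abundant gene of this list was Tcrg-C2, averaging 141 for control and 92.3 for cKO, with overlap, while Trdv4 and Blk never passed 3 reads. Tcrg-C1 (means 71.3 and 46.6) and Tcrg-C4 (63.0 and 43.0) had all cKO values below the controls. These Tcrg genes made up most of the sum, which is therefore not a count of cells. Cd163l1 alone of the list was higher in cKO, at means of 3.41 for control and 5.81 for cKO. The natural killer (NK) cell list, with 8 of 10 genes over 3 reads, summed to 347 to 634 and 227 to 478, with Gzma, a granzyme that T cells also transcribe, as its most abundant gene. Its members Klra8 and Klra4 never passed 3 reads. The part of such cells in the Ccl3, Ccl4 and Xcl1 values was not tested.

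**Figure D2:**
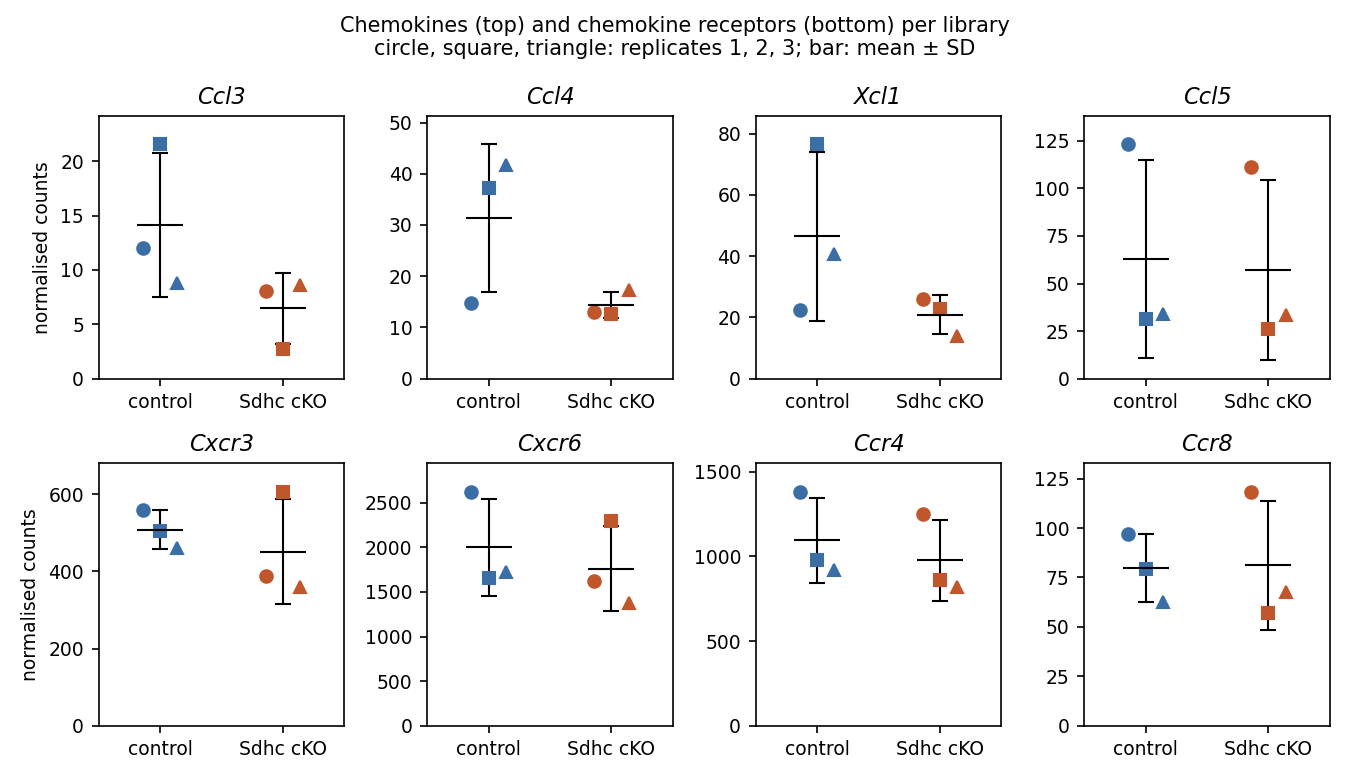
Normalised counts (vertical axes, from 0) of the 8 genes in each control and Sdhc cKO library, with circles, squares and triangles for replicates 1, 2 and 3 and bars for the mean ± SD of 3 libraries. Ccl4 and Xcl1 are high in controls 2 and 3, and Ccl5 is high in both libraries numbered 1, at 123 and 111.

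Ccl5 (RANTES, chromosome 11, 83525778 to 83530518, minus strand) was high in both libraries numbered 1, and its values overlapped between the genotypes. Its normalised counts were 123, 31.4 and 34.1 for controls 1 to 3, against 111, 26.2 and 33.4 for cKO 1 to 3. Control 1 and cKO 1 stood far above the other libraries, and the mean of these 2 was 3.75 times that of the other 4. They also held almost no Y-linked reads (0.048 and 0.207 RPM, against 55.1 to 193 in the others). For genes high in both, the replicate number and the Y-linked share cannot be told apart. Between the genotypes the means of 62.9 ± 52.2 and 57.0 ± 47.3 (SD, n = 3 each) gave a log2 difference of -0.14 (SE 0.66, limma adjusted p = 0.992) with a 95% interval of -1.68 to 1.40. The pooled SD of Ccl5 within groups was 1.09 on the log2 scale, against a median of 0.17 over all tested genes. With the replicate number as a block its difference stayed at -0.14, its SE became 0.19 and its 95% interval -0.57 to 0.29 (limma adjusted p = 0.785). Same-numbered values in cKO were 90.5%, 83.6% and 97.8% of control. With the Y-linked share as a covariate the difference was 0.58 (SE 0.32, limma adjusted p = 0.284). Both libraries numbered 1 were above the other 4 for 19.7% of all tested genes and for 3 of the 10 Th1 lineage markers. Of the 8 NK genes over 3 reads, 4 had both libraries numbered 1 above the other 4, Klrk1 (239 and 174) and Klrb1c (30.6 and 31.1) among them. Gzma was at 236 and 179 there and at 344 in control 3, and Ncr1, a defining NK gene, was at 3.70 and 2.01 and also highest in control 3. The sum of the NK list was 634 in control 1, 553 in control 3 and 478 in cKO 1. Cd8a and Cd8b1 together summed to 291 and 398 in these 2 libraries, within the range of 235 to 547 over all 6. The part of these cells in the Ccl5 level was not tested.

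The receptor genes differed little between the genotypes relative to their spread. Cxcr6 (chromosome 9, 123806475 to 123811760, plus strand), the receptor of Cxcl16, had normalised counts of 2627, 1658 and 1719 for controls 1 to 3, against 1619, 2294 and 1374 for cKO 1 to 3. The highest value was that of control 1 and the lowest that of cKO 3, with cKO 2 above controls 2 and 3. The means of 2001 ± 542 and 1762 ± 476 (SD, n = 3 each) correspond to a log2 difference of -0.18 (SE 0.23, 95% interval -0.71 to 0.34, limma adjusted p = 0.978), which was 0.07 without control 1 and cKO 1 and 0.03 without control 1 alone. Cxcr6 lies within the span of Fyco1, which is on the opposite strand, but the 2 share no exon base.

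Cxcr3 (chromosome X, 101731535 to 101734269, minus strand), the receptor of the interferon-induced ligands, showed the same order of libraries within cKO. Its normalised counts were 559, 506 and 460 for controls 1 to 3, against 388, 607 and 359 for cKO 1 to 3. In cKO 1 and cKO 3 it was below every control, and in cKO 2 above every control. The log2 difference was -0.21 (SE 0.20, 95% interval -0.66 to 0.25, limma adjusted p = 0.978, exact permutation p = 0.5). Without cKO 2 it was -0.44 (limma adjusted p = 0.732), without cKO 3 it was -0.06, and without control 1 and cKO 1 it was -0.05. Cxcr3 is X-linked and Xist differed between the libraries, and the part of this in the Cxcr3 values was not tested. The ratio of Cxcr6 to Cxcr3 counts stayed between 3.28 and 4.70 in the 6 libraries.

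Ccr4 (chromosome 9, 114490316 to 114504916, minus strand), the receptor of Ccl17 and Ccl22, had normalised counts of 1384, 981 and 920 for controls 1 to 3, against 1252, 860 and 817 for cKO 1 to 3. As with Ccl5, the libraries numbered 1 were the 2 highest, with a mean 1.47 times that of the other 4. The cKO library was below the control of the same number each time, at 90.5%, 87.7% and 88.8% of it, a pattern that 21.8% of tested genes shared. The log2 difference was -0.17 (SE 0.20, 95% interval -0.64 to 0.30, limma adjusted p = 0.978). With the replicate number as a block its SE was 0.06, and it did not pass there either (limma adjusted p = 0.347). The difference was 0.01 without control 1, 0.04 with the Y-linked share as a covariate, and -0.36 without cKO 1.

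Ccr8 (chromosome 9, 120092114 to 120094906, plus strand), the receptor of Ccl1, had normalised counts of 97.2, 79.4 and 62.7 for controls 1 to 3, against 119, 56.9 and 67.8 for cKO 1 to 3. Here too the libraries numbered 1 were highest, 1.62 times the mean of the other 4, and the genotypes overlapped. The log2 difference was -0.03 (SE 0.30, limma adjusted p = 0.998), with a 95% interval of -0.72 to 0.66, and its sign was positive in edgeR (0.04) and in DESeq2 (0.02). Ccl5, Ccr4 and Ccr8 were thus 3 of the 7 tested genes with both number 1 libraries above the other 4, as were 19.7% of all tested genes.

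**Figure D3:**
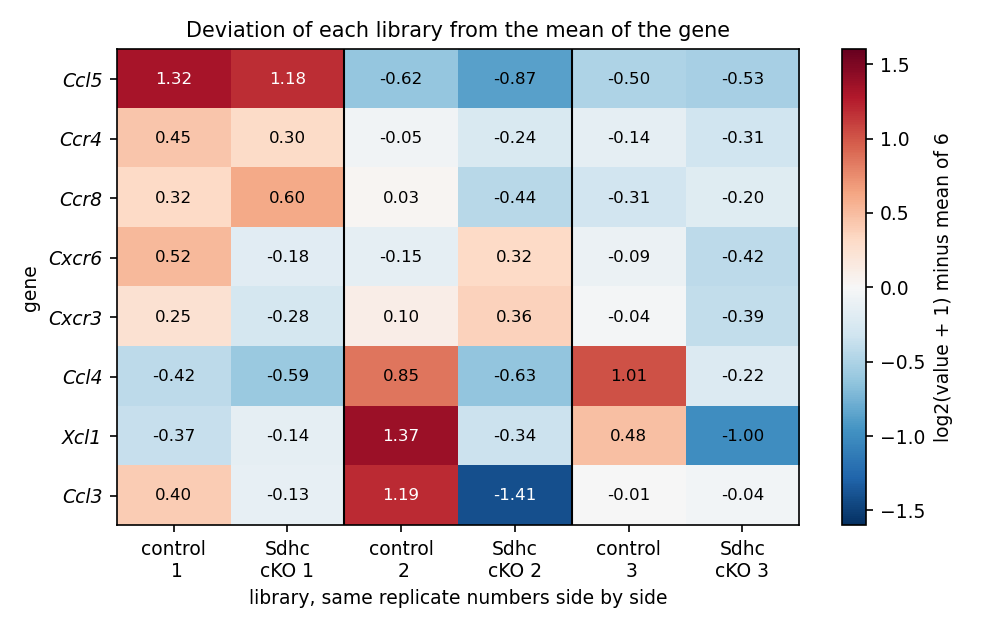
Deviation of log2(value + 1) of each library from the mean of the gene over the 6 libraries, with same-numbered control and Sdhc cKO libraries side by side (red above, blue below the mean). Ccl5 is at 1.32 and 1.18 in the libraries numbered 1, and Xcl1 and Ccl4 are at 1.37 and 0.85 in control 2 and at 0.48 and 1.01 in control 3.

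Over the members as a whole, 0 of 7 tested genes passed at an adjusted p of 0.05 (limma), as did 0 of 12699 genes, a percentage of 0. At an unadjusted p under 0.05 there was 1 member, Ccl4, lower in cKO, where 445 genes or 3.5% of all tested genes passed, and 1.53% of all tested genes passed with a lower value. With the replicate block 3 members, Ccl4, Xcl1 and Ccr4, had an unadjusted p under 0.05, as did 1596 genes or 12.6% of all tested. edgeR on the recovered reads called 0 members and 0% of genes, DESeq2 called 0 members and 0.0236%, and limma with the replicate block called 0 members and 0.00787%. The fit with the Y-linked share as a covariate called 6.5% of the tested genes, 826 in all, and 0 members. There the log2 difference of Ccl4 was -1.16 (limma adjusted p = 0.107) and that of Xcl1 -1.08 (adjusted p = 0.164). All 7 tested members had a log2 difference below 0, with a median of -0.18, against 54.1% of all tested genes and a median of -0.01. For Ccl5, Cxcr6, Ccr4 and Ccr8 that sign turned when 1 library was left out, and none of the 7 had groups without overlap, where 10.2% of tested genes did.

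**Figure D4:**
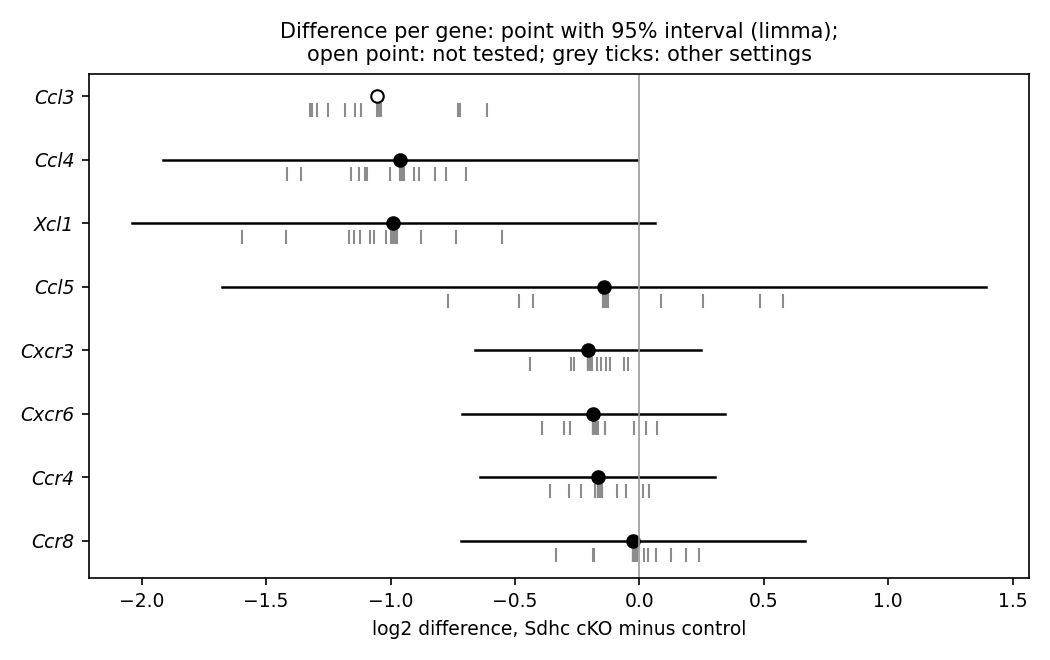
Log2 difference of Sdhc cKO minus control on the log2(value + 1) scale (horizontal axis) for each gene, as a point with its 95% interval from limma, an open point for Ccl3, which was not tested, and grey ticks for the other settings, single libraries left out included. Ccl4, Xcl1 and Ccl3 lie near -1 under most settings, and the receptor genes lie between -0.44 and 0.24.

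The partner list had 9 of 12 genes in the table and 4 tested, with 0 called. Not all of its genes are reported here, so the values below do not cover every receptor of the member ligands. Xcr1, the receptor of Xcl1, was at 11.0 to 25.8 normalised counts in the 6 libraries. Ccr1, a receptor of Ccl3 and Ccl5, and Ccr3, a receptor of Ccl5, reached at most 19.4 and 9.26. The ligands of the member receptors were sparse. Cxcl16 was at 6.33 to 17.2, Cxcl10 at 3.70 to 23.5, Ccl22 at 3.23 to 20.1, Ccl17 at 0.90 to 3.30 and Cxcl9 at 0 to 2.71.

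Among the other chemokine receptors, 20 of 21 had a row and 12 were tested, with 6 differences above and 6 below 0, a median of -0.11 and 0 called. Per kilobase the most abundant was Ccr7, which guides naive and central memory T cells to lymph nodes, at a mean of 1701 over the 6 libraries. Its normalised counts had means of 3217 in control and 3514 in cKO and did not overlap, with a log2 difference of 0.13 (SE 0.07, limma adjusted p = 0.978). Of the 12 tested receptors, 1 had all cKO values above the controls and 2 had all below, where 10.2% of all tested genes had no overlap in either direction. Cxcr4, the receptor of Cxcl12, was at 471 per kilobase and Ccr2 at 145. Ccr2, a receptor of effector T cells and monocytes, had normalised counts of 2326, 554 and 610 for controls 1 to 3, against 1080, 845 and 461 for cKO 1 to 3, high in the libraries numbered 1 like Ccr4. The other ligands had 15 of 34 genes in the table and 5 tested, led per kilobase by Pf4, Ccl27a, Ccl25 and Cxcl10, with a median difference of 0.08 and 0 called.

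Of the genes that carry the signal of these receptors, 28 of 31 had a row and all 28 were tested, with a median of -0.05 and 0 called. Differences were below 0 for 22 of them (78.6%, against 54.1% of all tested genes). All cKO values were below the controls for 3 (5.64% of all tested genes), and 3 had an unadjusted limma p under 0.05 (3.5% of all tested genes). Abundant genes per kilobase included Coro1a, an actin regulator, Gnai2, the main inhibitory G protein of lymphocytes, and Rap1b, a GTPase of integrin activation. Their log2 differences were -0.03, -0.03 and -0.11. With the Y-linked share as a covariate, 2 of the 28 passed, or 7.14%, near the 6.5% of all tested genes in that fit. Rgs10, which shortens G protein signals, was higher in cKO (log2 difference 0.40, SE 0.06, limma adjusted p = 0.0117), and Pik3cg, the phosphoinositide kinase downstream of these receptors, was lower (-0.35, SE 0.09, limma adjusted p = 0.0492). On genotype alone Rgs10 had a log2 difference of 0.26 and Pik3cg -0.19, each with a limma adjusted p of 0.978.

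For likeness of pattern, 9650 tested genes whose mean was 50 normalised counts or more were ranked by Pearson's r of log2(value + 1) with each tested member over the 6 libraries. The 6 points share their libraries and depth, and the values are given as a description. Ccl4 was most like Ndufs8 (r = 0.993), a complex I subunit, and Egr2 (r = 0.988), a transcription factor induced by antigen receptor signals. Egr2 had normalised counts of 187, 304 and 287 for controls 1 to 3, against 181, 172 and 207 for cKO 1 to 3, so controls 2 and 3 were highest here too. Xcl1 was most like Pmpcb (0.995), a mitochondrial processing peptidase, and Brms1 (0.983). Ccl5 was most like Tnfrsf13b (0.999) and Zdhhc8 (0.998), Ccr4 like Asb2 (0.995) and Letmd1 (0.993), and Ccr8 like Bend6 (0.996) and Brd9 (0.993), and all 6 of these genes were highest in the 2 libraries numbered 1. Cxcr3 was most like Il12rb1 (0.977), a chain of the IL-12 receptor, and Iqgap2 (0.971). Cxcr6 was most like Mmgt2 (0.968) and Pex2 (0.965).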

How the data were processed

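RNA-seq values of 6 libraries of Th1 cells were used, grouped by their titles. Per the submitters' processing notes, STAR, HTSeq and DESeq2 were used with the build mm10. For versions, strand setting and annotation the sources used here give nothing. The deposited signal values are read counts scaled by a size factor for each library. In every library 100% of them were a whole number of steps of the lowest nonzero value (tolerance 0.01), so whole reads were recovered. Size factors recomputed from these reads by the median-ratio method equalled those of the table.

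Differences were tested with limma-trend (R 4.3.3, limma 3.58.1) of log2(value + 1) on genotype alone. The fit covered the 12699 genes that exceeded 10 in 3 or more libraries, and p-values were Benjamini-Hochberg adjusted over them (threshold 0.05). For each member a 2-sided exact permutation p was computed as well. Alternatives were other pseudocounts (0.1 and 5), no filter or one at 50, TMM or library total scaling, edgeR 4.0.16 and DESeq2 1.42.0 on the recovered reads, the replicate block, the Y-linked share of reads as a covariate, and libraries left out. edgeR without a filter, for Ccl3, was chosen after seeing the data. The fit was tested on simulated data that held no replicate or Y-linked structure, unlike these libraries. Positions and merged exon lengths are from GENCODE M21 (GRCm38, the assembly of mm10), and promoters from RefSeq.

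Both groups carry replicate numbers 1 to 3 in their titles. Across tested genes, the deviation of a library from its group mean correlated with that of its same-numbered partner at 0.579, 0.458 and 0.188, which is the ground for the pairing. It is weakest for number 3, since cKO 3 correlated more with control 2 (0.272). The labels do not state it, and deviations of 3 libraries sum to 0, so these values depend on each other.

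Named genes were the 8 members, their partners, called genes or up to 4 of the most abundant of each fixed list, the 2 most alike per member, and fixed markers. The values of Egr2, Klrk1, Klrb1c, Cd8b1, Tcrg-C1, Tcrg-C4 and the absent markers, and Rgs10 and Pik3cg, called in an alternative only, were singled out after they were seen. The members and lists were chosen with earlier results of these data known. Results that need an item withheld here are not reported.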

Additional observations from a re-analysis of the deposited data

How the results depend on the processing

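The count of members called was 0 in each setting tried, and so was that of the other ligands, the other receptors and the partners. The count over all genes, 0 in the main test, was 3 with DESeq2, 1 with the replicate block, 826 with the Y-linked share as a covariate and 3 without control 1 and cKO 1 together, and 0 to 1 with single libraries left out. The signalling list had 2 calls with that covariate and 0 otherwise. The replicate block changed no call of a member. The sign of the difference turned in some settings. With the Y-linked share as a covariate it was 0.58 for Ccl5, 0.038 for Ccr4 and 0.24 for Ccr8. Without control 1 and cKO 1 it was 0.073 for Cxcr6, and for Ccr8 it was 0.037 with edgeR and 0.019 with DESeq2. The cause was not tested. With single libraries left out, the log2 differences ran from -1.32 to -0.61 for Ccl3, -1.41 to -0.70 for Ccl4, -0.77 to 0.49 for Ccl5, -1.42 to -0.55 for Xcl1, -0.44 to -0.06 for Cxcr3, -0.39 to 0.028 for Cxcr6, -0.36 to 0.013 for Ccr4 and -0.33 to 0.19 for Ccr8. The stricter filter removed Ccl4, Ccl5 and Xcl1 and so gave no value for them. Depth limits the ligand genes most, as Ccl3 rests on 3 to 22 reads and Ccl4 on 13 to 38 reads per library.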
